A study of Mus musculus with 6 samples.

Results

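The cytosolic ribosomal protein genes encode the proteins of the large and small subunits of the ribosome in the cytoplasm. They were taken here from the array's annotation as probe sets (groups of short probes that together read 1 transcript) with exactly 1 gene symbol, where that symbol was Rpl or Rps followed by a digit, Rpsa, Rplp0, Rplp1 or Rplp2. Ribosomal S6 kinases and pseudogene symbols were left out. The rule found 100 probe sets for 48 of the 12393 genes represented on the array, 26 of the large and 22 of the small subunit, and where a gene had several the one of highest mean stood for it. The genes were thus chosen by name and not by a measured value, though with earlier results of these data known. The samples were whole lenses of newborn ICR mice, 3 wild-type and 3 Hsf4-null, each hybridized to 1 Affymetrix mouse genome array after amplification of 50 ng of total RNA. The labels name no treatment, call the mutant HSF4 null and do not describe its allele, and the methods call the replicates biological triplicates. Nothing in the labels says whether animals or lenses were pooled, and p-values measure the spread between these samples.

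Hsf4 encodes a heat shock transcription factor that is prominent in the lens and binds heat shock elements, inverted repeats of the unit GAA. Ribosomal proteins are made in near equal amounts, and their messages are among the most abundant of a growing cell. Many of these messages begin with a 5′ terminal oligopyrimidine tract, a C at the cap followed by further pyrimidines, through which the mTORC1 pathway and the RNA-binding protein Larp1 control their translation. Lens fiber cells synthesize crystallins in bulk and later degrade their own organelles, ribosomes included. The comparison of null and wild-type lenses asks which transcripts depend on Hsf4, and for these genes whether the message supply for the ribosome differed.

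The sequences at the transcription start are shown first for 4 members with a pyrimidine tract there, since the tract is known of this family and was not used to choose the genes. Capitals mark the tract, which was searched on the gene's strand as C followed by at least 4 pyrimidines, beginning within 5 bases of the annotated start. All sequences are 30 bases, 5′ to 3′, from the RefSeq promoter table of GRCm38.p6.
Rps6: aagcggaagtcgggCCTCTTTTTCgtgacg
Rpl38: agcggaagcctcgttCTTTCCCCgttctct
Rps18: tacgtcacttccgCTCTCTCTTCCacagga
Rps24: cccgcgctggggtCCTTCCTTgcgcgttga
The Rps6 stretch lies at chr4:86857353-86857382 on the minus strand and the Rpl38 stretch at chr11:114668565-114668594 on the plus strand. That of Rps18 lies at chr17:33955651-33955680 on the minus strand and that of Rps24 at chr14:24490663-24490692 on the plus strand. Each spans the annotated 5′ end of the gene, from upstream sequence into the first exon.

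A pair of members held a 3-unit heat shock element in the promoter window, and these are shown because Hsf4 belongs to the factors that bind such elements. The search took GAA and TTC in turn, 2 bases apart and in either order, on both strands, and capitals mark the units.
Rpl22: cagcgctgcTTCtgGAAtgTTCcagctccc
Rps18: acaactctgTTCcgGAAccTTCgctccgcg
The Rpl22 stretch lies at chr4:152324418-152324447 on the plus strand, across the annotated start, and the Rps18 stretch at chr17:33955860-33955889 on the minus strand, upstream of the start. On the 3 wild-type arrays Rpl22 had log2 intensities of 12.03, 12.04 and 11.96, and on the 3 Hsf4-null arrays it had 12.15, 12.11 and 12.08. Rps18 was measured at 13.28, 13.33 and 13.15 in wild-type and at 13.36, 13.25 and 13.35 in Hsf4-null lenses. The null arrays of Rpl22 all lay above the wild-type arrays and those of Rps18 overlapped with them, and neither gene passed the test (log2 changes of 0.10 and 0.06, adjusted p = 0.649 and 0.807).

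The labels were checked on the targeted gene. Hsf4 was measured at 9.09, 9.39 and 9.56 in wild-type and at 4.26, 4.09 and 3.78 in Hsf4-null lenses, and dropped by 5.30 log2 units (standard error 0.16). The sources used here do not say whether its probe set lies within the deleted sequence. The median log2 intensity of the arrays was 5.22 to 5.38. Lens fiber markers were present, with 11 of 14 listed genes measured at wild-type means of 8.88 to 14.3. Of these 11, 8 were below 0 in log2 change and 1 fell (Bfsp1), where 1.94% of all probe sets fell. Of 6 lens epithelium markers 4 were below 0 and 0 passed in limma. Without adjustment 2 of them were lower and 0 higher (limma, p under 0.05), where 8.55% and 6.83% of all probe sets were. Markers of macrophages (11 of 12), mesenchyme (8 of 10), pigment cells (6 of 7), vessels (8 of 10), retina (9 of 10) and dividing cells (7 of 9) were mostly above 0 in log2 change, where 50.5% of all probe sets were. Of the macrophage markers 0 passed in limma (4 were higher and 0 lower when p was left unadjusted and taken under 0.05, where 6.83% of all probe sets were higher), with summed log2 levels of 57.1 to 69.4 in wild-type and 65.6 to 73.8 in null arrays. Of the mesenchyme markers 2 of 10 rose (Col1a1 and Twist1), where 0.72% of all probe sets did, with sums of 48.8 to 54.6 and 55.9 to 56.7. Retina sums were 53.04 to 66.75 in wild-type and 49.32 to 68.52 in null arrays, wider in null at both ends. Sums of the vessel, pigment cell and dividing cell markers also overlapped between the groups. Of 6 erythroid markers 3 were above 0, 3 below and 0 passed in limma, with sums of 30.68 to 31.64 and 32.04 to 32.60. At an unadjusted p under 0.05 (limma), 2 of 6 erythroid, 3 of 10 vessel, 2 of 7 pigment cell and 3 of 10 mesenchyme markers were higher. In these 4 lists 0 were lower. Of the retina and dividing cell markers 0 were higher and 0 lower at that level, where 6.83% and 8.55% of all probe sets were. The part of these cell types in the ribosomal protein values below was not tested.

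Loss of Hsf4 left no ribosomal protein gene with a called change. Of the 48 genes, 0 passed in either direction at an adjusted p under 0.05 by limma, a linear model fitted to all 22626 probe sets, where 2.66% of probe sets passed (1.94% lower and 0.72% higher). At an unadjusted p under 0.05, 1 gene was lower (Rpl22l1), where 8.55% of all probe sets were, and 3 were higher (Rpl14, Rpl39l and Rps4l), where 6.83% were. That is 4 of 48 genes, against 15.4% of all probe sets in either direction. The methods' t-test put 1 gene lower and 6 higher at the same unadjusted level (7.55% and 5.32% of all probe sets, 12.9% together), and 0 in either direction after Benjamini-Hochberg adjustment. In whole tissue, fewer cells of a type and less RNA per cell cannot be told apart, and the RMA scale fixes the overall level of each array, so a shift shared by most transcripts would not appear.

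The changes were small as well as uncalled. Log2 changes ran from -0.27 to 0.71 with a median of 0.034 and a middle range of -0.01 to 0.08, while the middle range over all probe sets was -0.13 to 0.13 about a median of 0.0025. Bright probe sets varied less. Over the 502 probe sets with a mean log2 intensity of 12 or more, the middle range was -0.09 to 0.04. Of the 48 genes, 34 lay within 0.1 of no change, which is 1.07-fold, 42 within 0.2 and 45 within 0.3. Counted among the 48 are 6 genes read only by probe sets below the arrays' median level, for which a small change says little. The 95% interval of the change lay inside 1.5-fold in either direction for 44 of 48 genes (91.7%), against 73.3% of all probe sets. Among the 42 genes above the arrays' median level it did for 39 (92.9%). Over the 502 bright probe sets the share was 94.8%, so the difference from 73.3% is not particular to these genes. The 4 genes with an interval reaching further were Rpl14, Rpl39l, Rps25 and Rps4l. At the median standard error of these genes, 0.094, an estimated change of 0.46, or 1.38-fold, would have been needed to pass. Genes of larger standard error needed more, and Rpl14 and Rps4l (0.25 and 0.17) did not pass at 1.63-fold. With 3 arrays a group, such changes in single genes may have been missed.

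**Figure D1:**
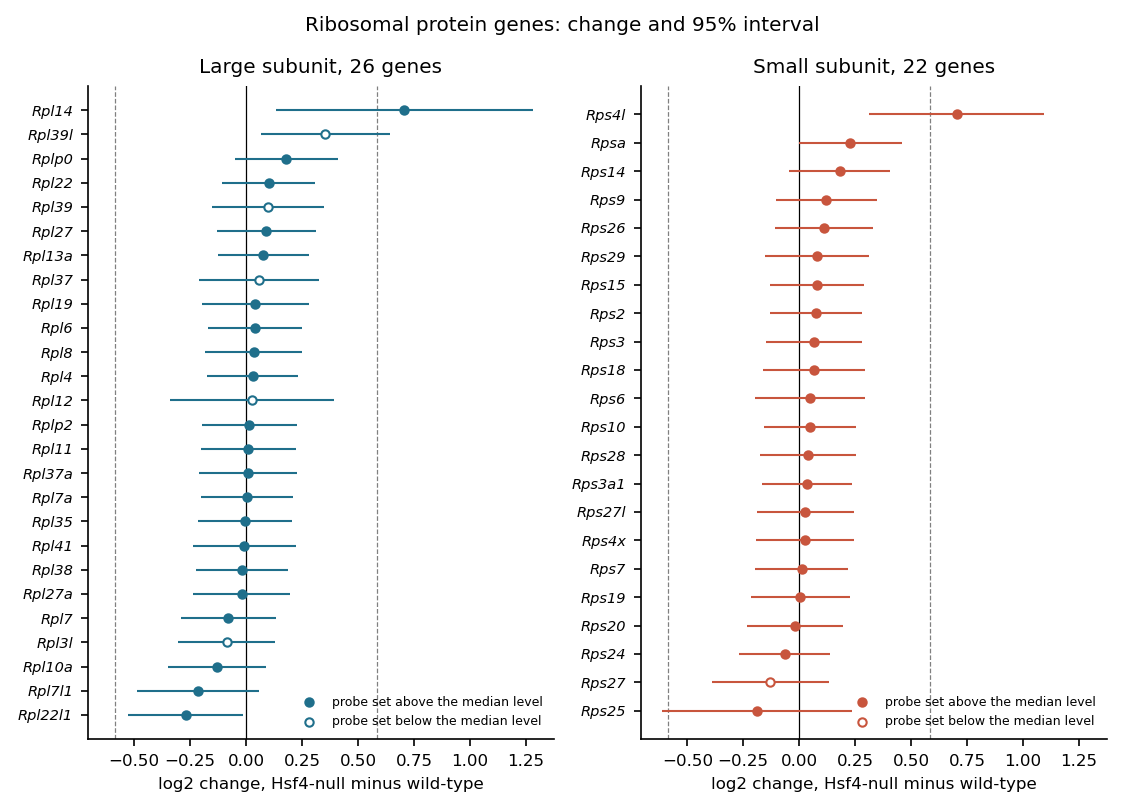
Log2 change (Hsf4-null minus wild-type, horizontal axis) of each ribosomal protein gene with its 95% interval from limma, 26 large subunit genes at left and 22 small subunit genes at right, ordered by change. Dashed lines mark 1.5-fold, open points are probe sets below the arrays' median level, and most points sit within 0.1 of 0 with Rpl14 and Rps4l farthest to the right.

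Both subunits leaned slightly above 0. Large subunit genes had a median log2 change of 0.02, with 17 above 0 and 9 below, and small subunit genes 0.05, with 18 above and 4 below. Together 35 of 48 genes lay above 0 and 13 below, against 50.5% of all probe sets above 0. Over all 100 probe sets of these genes 65 lay above 0 and 35 below. Of 91 further probe sets that list a ribosomal protein gene beside pseudogenes, 62.6% lay above 0. Among the 33 genes with a mean log2 intensity of 12 or more 75.8% lay above 0, against 42.2% of all 502 probe sets at that level, whose median change was -0.02. The lean over all 48 genes amounted to a median of 0.034, and the median of these genes varied between arrays of a group by an SD of 0.0212. It also varied with the arrays included. Relative to each gene's mean over the 6 arrays, the median gene stood at -0.02, 0.01 and -0.05 in the wild-type arrays and at 0.03, 0.01 and 0.02 in the null arrays, so the second wild-type array lay at the level of the second null array. Without wild-type replicate 3, the lowest array, 30 of 48 genes were above 0 and the median was 0.02.

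Most of these genes had bright probe sets. For 33 genes the mean log2 intensity was 12 or more, on arrays whose brightest probe sets reached 14.3 to 14.4. For these 33 genes the SD between arrays was 0.010 to 0.12 in wild-type and 0.0035 to 0.096 in null lenses, and every interval lay inside 1.5-fold, between -0.35 and 0.46. Over all 502 probe sets at that level 94.8% of intervals lay inside 1.5-fold, and 5 passed lower and 0 higher with limma (29 and 9 at an unadjusted p under 0.05). The files carry no saturation marks, and how far such bright probe sets could still register an increase was not tested.

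**Figure D2:**
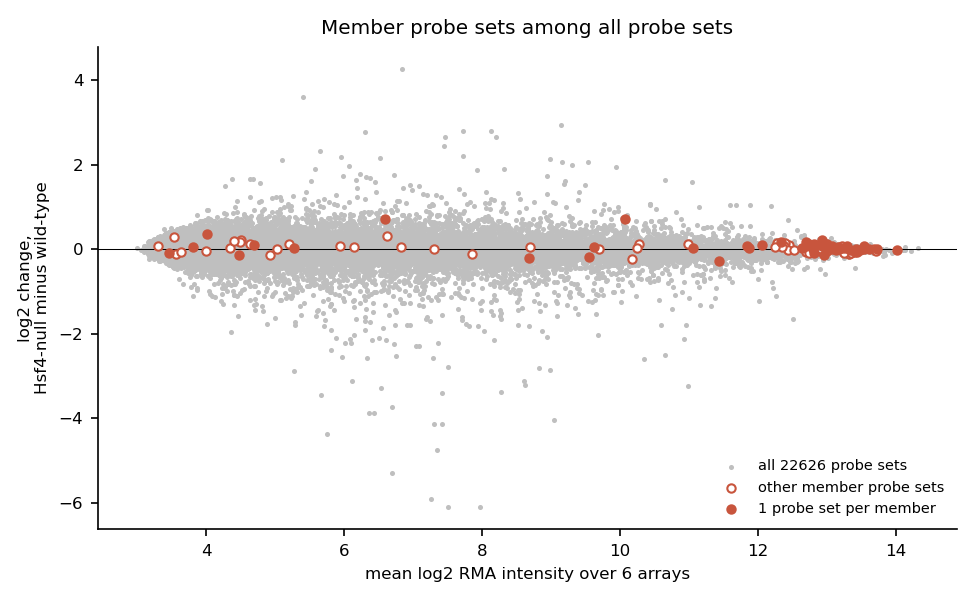
Mean log2 RMA intensity over the 6 arrays (horizontal axis) and log2 change, Hsf4-null minus wild-type (vertical axis), for all 22626 probe sets in grey, with the 100 ribosomal protein probe sets in red. Filled points, 1 per gene, gather at 12 and above close to the line of no change.

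Probe sets to the same gene were compared in their changes. Of the 48 genes, 25 had 1 probe set and 23 had more. Among 19 genes with 2 or more probe sets above the array median, the changes of those 58 probe sets differed within a gene by a median of 0.075, and by less than 0.1 in 13 genes. A further 13 probe sets, below the array median in genes with a brighter one, were left out of this. The widest range, 0.40, belonged to Rpl41, a very short large subunit protein, whose 4 probe sets ran from -0.07 to 0.32. The brightest of them stood at 14.07, 14.09 and 13.88 in wild-type and at 14.03, 14.00 and 13.98 in null lenses, with a change of -0.01. None of the 100 probe sets passed the test (limma, with 1 lower and 3 higher at an unadjusted p under 0.05). With 34 of the 48 genes within 0.1 of no change, small differences within a gene do not show that its probe sets agree. Differences between genes were not set beside them. Ribosomal protein genes have many processed pseudogenes, and 40 of these probe sets carry the suffix that marks probes shared with other sequences. Another 2 carry the suffix for probes common to several transcripts. A value may thus include near copies and is uncertain to that extent.

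The highest change belonged to Rpl14, a large subunit protein. Its log2 intensities were 9.96, 10.10 and 9.08 in wild-type and 10.39, 10.51 and 10.36 in Hsf4-null lenses. All null arrays lay above all wild-type arrays, but the third wild-type array stood well below the other two, and the change of 0.71 (standard error 0.25, adjusted p = 0.229) became 0.39 without it. Rps4l, a copy of the small subunit gene Rps4x, came closest to passing. It was measured at 6.28, 5.97 and 6.49 in wild-type and at 7.18, 6.70 and 6.97 in null lenses, again without overlap. The change was 0.70 (standard error 0.17, 95% interval 0.31 to 1.10, adjusted p = 0.087), and it stayed between 0.57 and 0.83 under the alternatives run.

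Rpsa, the 40S protein also known as the laminin receptor, had tightly grouped null arrays. Its values were 12.79, 12.93 and 12.70 in wild-type and 13.04, 13.03 and 13.04 in null lenses. The groups were apart, and the change of 0.23 (standard error 0.099, adjusted p = 0.332) did not pass. Its second probe set lay below the arrays' median level. Rps14, a small subunit protein known from the 5q- syndrome of human blood, gave 12.65, 12.67 and 12.50 in wild-type and 12.82, 12.72 and 12.83 in null lenses. The change was 0.18 (standard error 0.098, adjusted p = 0.437). Its second probe set, also bright at a wild-type mean of 12.34, gave a change of 0.07 with overlapping groups. Rpl39l completes the 5 highest changes and is described with its near copy.

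The lowest change was that of Rpl22l1, a paralog of Rpl22. It was measured at 11.51, 11.69 and 11.51 in wild-type and at 11.30, 11.42 and 11.17 in null lenses, with every null array below every wild-type array. The change was -0.27 (standard error 0.11, 95% interval -0.53 to -0.02, adjusted p = 0.296). Rpl10a, which forms the mobile L1 stalk of the large subunit, was at 13.05, 13.01 and 13.02 in wild-type and at 12.82, 12.87 and 12.99 in null lenses. The groups did not overlap, although the third null array came close to the lowest wild-type array, and the change was -0.13 (standard error 0.094, adjusted p = 0.565). Rps25, a 40S protein used by some viral messages for internal initiation, was at 9.45, 9.73 and 9.75 in wild-type and at 9.15, 9.84 and 9.38 in null lenses. These overlapped, with the highest value of all in a null array and a change of -0.19 (standard error 0.18, adjusted p = 0.678).

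**Figure D3:**
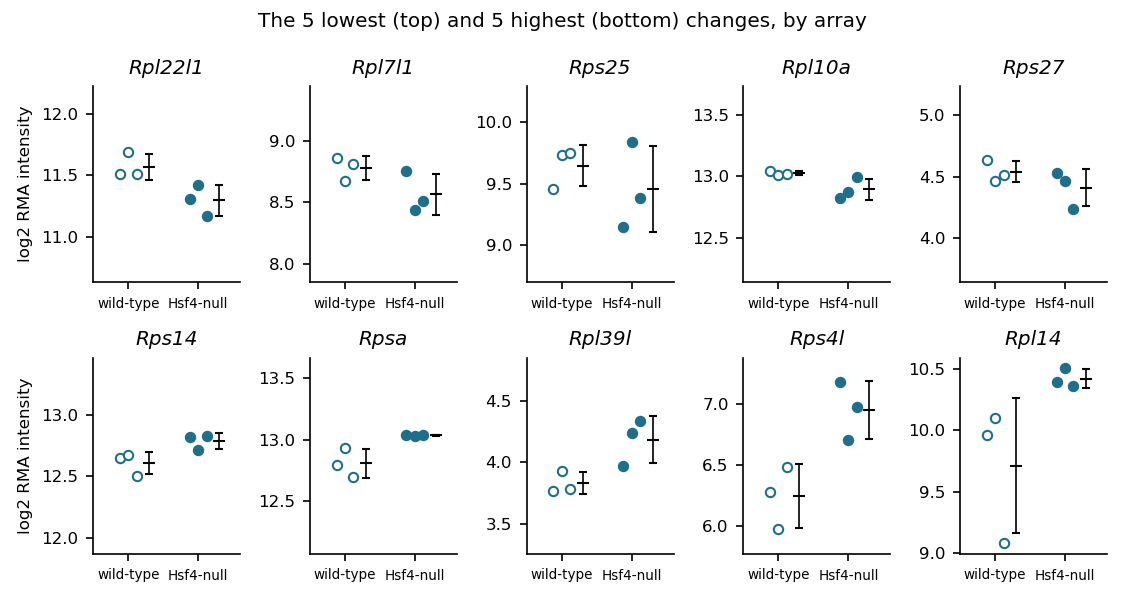
Log2 RMA intensity (vertical axis, each panel spanning 1.6 log2 units at its own level) by array, open for the 3 wild-type and filled for the 3 Hsf4-null lenses, for the 5 genes with the lowest changes (top row) and the 5 with the highest (bottom row). Bars give mean ± SD, and the third wild-type array of Rpl14, at 9.08, stands below the rest of its panel.

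Groups without overlap were counted for all genes. The null arrays lay entirely above the wild-type arrays in 10 of 48 genes (20.8%, against 9.37% of all probe sets) and entirely below in 3 (6.25%, against 11.7%). The 10 were Rpl13a, Rpl14, Rpl22, Rpl39l, Rplp0, Rps2, Rps4l, Rps14, Rps15 and Rpsa, with changes of 0.08 to 0.71. The 3 were Rpl10a, Rpl22l1 and Rps24, with changes of -0.07 to -0.27. In all, 13 genes (27.1%) had groups apart, against 21.1% of all probe sets. These counts take 1 probe set per gene. Over all 100 probe sets of these genes, the null arrays lay entirely above in 14 and entirely below in 6. Of 91 further probe sets that list a ribosomal protein gene beside pseudogenes, 7 lay entirely above and 2 entirely below. The genes are read from the same 6 arrays and are not independent of each other, and wild-type replicate 3 was the lowest of the 6 for the median gene. Rpl13a shows how small such differences were, at 13.50, 13.51 and 13.47 in wild-type and 13.54, 13.59 and 13.59 in null lenses. Rps24 had 13.45, 13.45 and 13.50 against 13.41, 13.43 and 13.36.

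Several ribosomal proteins have a near copy encoded elsewhere in the genome, and 5 such pairs were measured. In no pair did either gene pass. The changes were 0.10 for Rpl22 and -0.27 for Rpl22l1, -0.08 for Rpl7 and -0.22 for Rpl7l1, 0.10 for Rpl39 and 0.35 for Rpl39l, 0.02 for Rps4x and 0.70 for Rps4l, and -0.13 for Rps27 and 0.03 for Rps27l. The difference between the genes of a pair was not tested. Rps4x, the X-linked gene, was at 12.73, 12.59 and 12.56 in wild-type and 12.66, 12.66 and 12.62 in null lenses, with overlapping groups. Rpl7l1, which is related to Rpl7, was at 8.86, 8.67 and 8.81 in wild-type and 8.75, 8.44 and 8.51 in null lenses, and its 2 probe sets gave -0.22 and -0.12.

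Rpl39l, a copy of Rpl39 known from testis, was measured at 3.77, 3.93 and 3.79 in wild-type and at 3.97, 4.24 and 4.34 in null lenses. The groups did not overlap, and the change of 0.35 (standard error 0.12) had an adjusted p of 0.228. It is one of 6 genes, with Rpl3l, Rpl12, Rpl37, Rpl39 and Rps27, for which the rule found no probe set above the arrays' median of 5.29. Their wild-type means were 3.51 to 5.26. Rpl3l, a muscle copy of Rpl3, had a change of -0.09 (standard error 0.09). The files hold no detection calls, and values this low say little about whether the transcript was present. For Rps27 these were 4.64, 4.47 and 4.52 in wild-type and 4.53, 4.47 and 4.24 in null lenses.

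Among members with known roles on the ribosome or in disease, none passed. Rplp0, the base of the acidic stalk that recruits elongation factors, was at 12.27, 12.32 and 12.14 in wild-type and at 12.51, 12.37 and 12.39 in null lenses. The groups did not overlap, with a change of 0.18 (standard error 0.099, adjusted p = 0.445). Rplp2, a stalk protein bound to Rplp0, had a change of 0.01 (standard error 0.09). Rps6, the substrate of S6 kinase whose start sequence is printed above, was at 9.43, 9.64 and 9.71 in wild-type and at 9.64, 9.68 and 9.62 in null lenses. Its groups overlapped and its change was 0.05 (standard error 0.11).

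Rps19 and Rpl11, both mutated in Diamond-Blackfan anemia, had changes of 0.01 (standard errors 0.10 and 0.09). Rpl11 also binds Mdm2, the ubiquitin ligase of p53, and its interval ran from -0.20 to 0.22. Rpl38, which mouse embryos need for the translation of a subset of Hox messages, had a change of -0.02 (95% interval -0.22 to 0.19). Its arrays gave 13.48, 13.51 and 13.46 in wild-type and 13.51, 13.46 and 13.42 in null lenses. The 95% intervals of these 3 genes lay between -0.22 and 0.23 on the log2 scale.

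The start sequences were set beside the changes. Of the 48 genes 42 were in the RefSeq promoter table, with 50 promoters of 300 bases, 250 before and 50 after the start. A pyrimidine tract at the start was found in 21 of these 50 promoters (42%) and in 6027 of all 32851 (18.3%). The 20 genes with a tract had a median log2 change of 0.03, and the 22 without had 0.03. Tract carriers included both Rpl14 and Rpl22l1, from opposite ends of the order. Annotated starts can be off by several bases, so a tract not found here says only that these letters are not near the annotated start.

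Heat shock element letters were searched in the same promoters. A 2-unit element was found in 4 of the 50 promoters (8%) and in 4946 of all promoters (15.1%). The 4 genes were Rpl22, Rpl27a, Rps7 and Rps18, with changes from -0.02 to 0.10. The 3-unit element printed above for Rpl22 and Rps18 was found in 2 of the 50 (4%) and in 198 of all promoters (0.603%). A match of letters is a description and does not show that a factor binds there.

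Other genes of ribosome production and protein synthesis were followed in lists set by name. Of the ribosomal proteins with other symbols only Fau, whose product is cleaved to the small subunit protein S30, had a probe set with a single symbol, and its change was 0.12 (standard error 0.10, adjusted p = 0.623). Of 15 measured elongation factors and other messages with 5′ pyrimidine tracts 0 passed (0 at an unadjusted p under 0.05 too, limma), with changes of -0.11 to 0.16. In this list 6 genes lay above 0 and 9 below, with a median of -0.03, unlike the slight lean of the ribosomal protein genes. Eef1a1, which brings aminoacyl-tRNA to the ribosome, had 0.02, and Eef2, the translocase, had 0.16.

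Of 17 measured genes of mTORC1 signaling and ribosomal protein message control 0 passed (limma, 2 lower and 1 higher at an unadjusted p under 0.05). Eif4ebp1, a translation repressor inactivated by mTORC1, had a change of -0.33 (adjusted p = 0.271), and Tsc1, an inhibitor of the pathway, -0.27 (adjusted p = 0.267). Rps6ka3, a ribosomal S6 kinase, had 0.36 (adjusted p = 0.214). Larp1, which binds the pyrimidine tract, had 0.00. Among 104 ribosome biogenesis genes 0 passed (limma, 9 lower and 6 higher at an unadjusted p under 0.05), with changes from -0.64 for Grwd1 to 0.59 for Noc3l about a median of -0.00. Beside the unadjusted counts of both lists, 8.55% of all probe sets were lower and 6.83% higher at that level. Closest to passing was Sdad1 at -0.54 (adjusted p = 0.0639), and Exosc9, a subunit of the RNA exosome, had 0.56 (adjusted p = 0.0959). Sdad1 was dim, with means of 5.12 in wild-type and 4.58 in null lenses, both below the arrays' median of 5.29. Noc3l was dim in wild-type, with means of 4.89 there and 5.48 in null lenses.

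The mitochondrial ribosome held the only genes of these lists that passed. Of its 74 measured protein genes 2 fell and 0 rose by limma (7 lower and 3 higher at an unadjusted p under 0.05), about a median change of 0.02. Over all probe sets 2.66% passed, a share like that of this list. At the unadjusted level 8.55% of all probe sets were lower and 6.83% higher. Mrps12, a protein of the small mitochondrial subunit near its decoding site, was at 8.29, 8.32 and 8.13 in wild-type and at 7.10, 7.26 and 7.01 in null lenses. It fell by 1.13 log2 units, or 2.18-fold (standard error 0.11, adjusted p = 0.00168). The suffix of its probe set marks probes common to several transcripts, so the value may include others. Mrps26, of the same subunit, was at 10.06, 10.37 and 10.44 in wild-type and at 9.26, 9.37 and 9.00 in null lenses. It fell by 1.08 log2 units, or 2.11-fold (standard error 0.14, adjusted p = 0.00772), and for both genes the groups did not overlap.

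**Figure D4:**
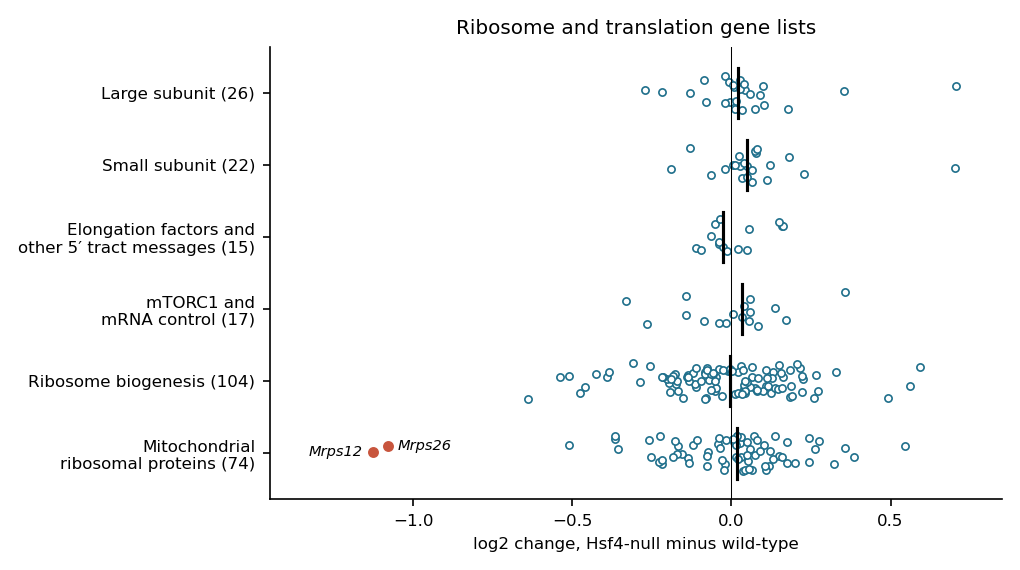
Log2 change, Hsf4-null minus wild-type (horizontal axis), of each measured gene in 6 lists, with the number of genes in brackets and the list's median as a black bar. Filled red points passed at an adjusted p under 0.05, and these are Mrps12 and Mrps26 of the mitochondrial list.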

How the data were processed

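Linear intensity values were deposited by the authors after RMA normalization of the 6 arrays, 1 per probe set and array. The sources used here give neither the RMA version nor whether other arrays were normalized with them. After log2, the 22626 probe sets left without 64 controls were fitted with limma 3.58.1 in R 4.3.3 (lmFit, eBayes, 2 groups), with Benjamini-Hochberg adjustment over all of them and calls at an adjusted p under 0.05. The fit was tested on simulated data. Symbols came from the platform annotation, 20351 of 20380 updated through RefSeq gene identifiers. The members and gene lists, and the rule for named genes, were chosen with earlier results of these data known. Named are any called member, the 5 highest and 5 lowest changes, near-copy pairs, members of known special role, up to 4 called genes a list and direction, and Hsf4. Genes named for groups without overlap, for printed sequences or for the ends of a list were picked after their values were seen. A further 102 probe sets list a ribosomal protein symbol beside others and were left out of the main count. The SAM step of the methods was not run. Alternatives were the methods' t-test, the replicate block, variance models, array weights, renewed scaling, filters, other choices of probe set and leaving out each array. Precision is limited by the number of arrays, and an exact test of 3 against 3 cannot go below 0.1.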

Additional observations from a re-analysis of the deposited data

How the results depend on the processing

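The counts of ribosomal protein genes called, 0 lower and 0 higher, were the same under every alternative run except the methods' t-test without adjustment, which put 1 lower and 6 higher. Over all probe sets that test put 1708 lower and 1204 higher, and over the listed genes of ribosome production and translation 19 and 14, where limma called 439 and 163, and 2 and 0. With Benjamini-Hochberg adjustment the t-test left 63 lower and 22 higher over all probe sets, and 0 and 1 of the listed genes; Mrps12 and Mrps26 then had adjusted p of 0.0577 and 0.125. The replicate number as a block gave 268 lower and 114 higher in all, and the listed genes stayed at 2 and 0. Same-numbered arrays correlated at 0.25, -0.21 and -0.08 in their deviations from the group means, so the numbers were not read as pairs. Trended and robust variance gave 589 lower and 246 higher in all. Only probe sets of mean 10 or more, with 38 members, gave 127 and 53 in all and 1 and 1 of the listed genes. Neither Mrps12 nor Mrps26 reached that mean, so these were other genes of the lists, uncalled in the main fit. Leaving out 1 array gave 226 to 385 lower and 94 to 177 higher over all probe sets, and 0 of the members each time. Where a setting moved a count, the cause was not tested.

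The median change of the members stayed between 0.0226, without wild-type replicate 3, and 0.0485, after renewed quantile normalization. In a setting chosen after seeing the data, 91 probe sets listing 1 ribosomal protein gene beside pseudogenes were added, which gave 73 genes, 0 called (limma, 1 lower and 3 higher of the 91 at an unadjusted p under 0.05) and a median of 0.0285. The alternatives gave 477 values over 29 named members. Of these values 25 had the opposite sign to the main one, none of them called, and the 7 calls all came from the unadjusted t-test. The change of Rpl14 ran from 0.39 without wild-type replicate 3 to 0.90 without wild-type replicate 2, with adjusted p of 0.12 to 0.467 over its alternatives and an unadjusted p of 0.0934 in the methods' t-test. A gene that passed in neither of a pair of settings counted as unaltered in call, also where its sign turned. With 3 arrays a group, an estimated change of about 1.38-fold was needed to pass in the main fit at the median standard error of the members. Members of larger standard error needed more.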
